A study of Homo sapiens with 6 samples.

Results

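The small nuclear RNAs (snRNAs) of the major spliceosome are U1, U2, U4, U5 and U6, and their genes were followed here through the GAPDH CLIP-seq peak lists of MOLM-13 cells. Members were chosen by name: every listed gene whose symbol marks it as a U1, U2, U4, U5 or U6 locus was taken, with sequence variants (RNVU1) and copies named as pseudogenes (symbol ending in P) included. They were 34 of the 1108 distinct peaks of the series and lay on 24 loci. The cells, MOLM-13, are an established human line derived from an acute myeloid leukaemia, and CLIP-seq recovers the RNA that is crosslinked to a protein, here glyceraldehyde-3-phosphate dehydrogenase (GAPDH), a glycolytic enzyme, with an antibody. They were kept in 3 media, which held galactose, a low level of glucose or a normal one, and no further treatment or genetic change is given in the labels of any group. There were 6 samples, 2 per medium, and the authors joined both samples of a medium into 1 list, so there was no spread between replicates and no test between media could be made. Positions carry no expression level, so the identity of the cell line could not be checked against markers, and the read depth behind a peak is unknown. The intervals given are exact Clopper-Pearson 95% intervals and cover counting error over peaks only.

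Introns are removed from pre-mRNA by the spliceosome, in which each snRNA works as a ribonucleoprotein. U1 pairs with the 5′ splice site and U2 with the branch point, U4 holds U6 inactive by base pairing and is released before catalysis, U5 aligns the exons, and U6 takes part in the catalytic core. U1, U2, U4 and U5 are made by RNA polymerase II and carry a ring of Sm proteins on a short uridine-rich site, whereas U6 is made by RNA polymerase III and carries LSm proteins on its uridine tail. All are abundant, stably folded nuclear RNAs with many near-identical gene copies in the human genome.

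The sequences below show where the calls fell. A peak was taken to reach 50 nt beyond its outermost called crosslink sites, so that these outer sites could be read back from its ends, and the narrowest peaks held a single site. The lists do not state how positions are counted, and they were read as 1-based with both ends included, as inferred from the data. In the RNA, positions are counted from 1 at the first base of the annotated RNA, the base before it is -1, and counting goes on past the last base. The following RNAs are given 5′ to 3′ from hg38 as DNA letters on the strand of the gene, with 5 flanking bases on each side, and the capitals are the outer sites of their peaks in any of the lists. RNVU1-31 (chr1:145465612-145465785, minus strand) and RNVU1-7 (chr1:148038748-148038921, minus strand) show sites at the ends of U1 and, on RNVU1-7, at bases 152 and 153 inside it. RNU2-2P (chr11:62841614-62841814, minus strand) and RNU4-1 (chr12:120293092-120293242, minus strand) show a U2 and a U4 RNA, each with a site before the first base and sites far inside.
RNVU1-31: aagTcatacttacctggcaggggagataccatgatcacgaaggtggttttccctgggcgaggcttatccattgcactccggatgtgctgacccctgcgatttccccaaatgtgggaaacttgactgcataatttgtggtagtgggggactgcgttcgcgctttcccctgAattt
RNVU1-7: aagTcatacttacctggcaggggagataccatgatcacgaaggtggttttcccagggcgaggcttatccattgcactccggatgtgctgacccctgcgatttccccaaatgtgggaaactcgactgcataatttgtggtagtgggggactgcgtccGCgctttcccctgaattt
RNU2-2P: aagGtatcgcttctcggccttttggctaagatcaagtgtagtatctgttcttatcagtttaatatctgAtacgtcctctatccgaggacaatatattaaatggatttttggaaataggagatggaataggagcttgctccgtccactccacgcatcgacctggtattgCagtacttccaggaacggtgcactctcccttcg
RNU4-1: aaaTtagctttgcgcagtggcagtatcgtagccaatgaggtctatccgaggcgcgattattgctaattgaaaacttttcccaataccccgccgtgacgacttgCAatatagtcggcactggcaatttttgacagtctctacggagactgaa

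The galactose list held 11 peaks on these loci, the low glucose list 15 and the normal glucose list 24. These were 3.26% of the 337 galactose peaks (1.64 to 5.77), 3.1% of the 484 low glucose peaks (1.74 to 5.06) and 4.85% of the 495 normal glucose peaks (3.13 to 7.13), and the intervals overlapped. Without symbols ending in P the counts were 7, 8 and 18 and the shares 2.08%, 1.65% and 3.64%, and without peaks annotated to another gene the counts were 6, 7 and 16. U1 loci had 5, 7 and 11 peaks in galactose, low and normal glucose. U6 loci had 5, 5 and 7 peaks, and the single U2 locus had 1 peak in each list. U4 loci had none in galactose and 2 in each glucose list. U5 loci had 3 peaks in normal glucose and none in the other lists, where 0 of 337 and 0 of 484 peaks allow a share of up to 0.89% and 0.62% (3 counts of the list; the exact upper limits are 1.09% and 0.759%). U1 and U6 together thus made up most of the peaks in every list, while U4 and U5 appeared in the glucose lists alone. More than 50% of the 30-mers recur in the genome in 9 of the 34 peaks. Leaving such recurrent peaks out kept 8 of 11, 12 of 15 and 18 of 24 snRNA peaks in galactose, low and normal glucose. In the whole lists it kept 276 of 337, 418 of 484 and 370 of 495 peaks, so recurrence was not particular to these loci. The shares on snRNA loci were then 2.9%, 2.87% and 4.86%. By locus, 9, 14 and 20 snRNA genes had a peak in galactose, low and normal glucose.

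**Figure D1:**
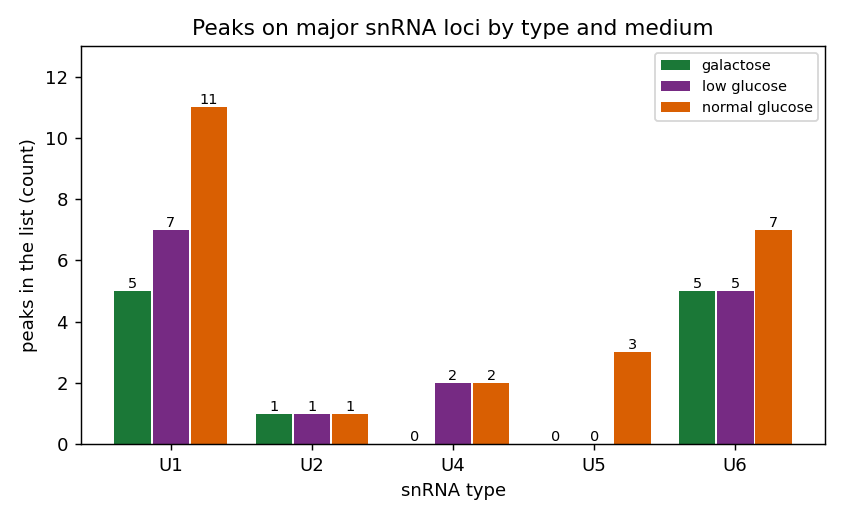
Peaks on major snRNA loci (count, y axis) by snRNA type (x axis) and medium (bar colour), 1 joined list per medium and no error bars. U1 has the tallest bars in low and normal glucose, and the U5 bar stands in normal glucose only.

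Of the 24 loci, 7 had a peak in all 3 lists. They were the U1 loci RNU1-88P, RNVU1-31 and RNVU1-7, the U2 locus RNU2-2P, and the U6 loci RNU6-2, RNU6-4P and RNU6-9. A further 9 loci had peaks in normal glucose alone, 3 in low glucose alone and none in galactose alone. The peaks merged into 29 regions, of which 8 (27.6%, 12.7 to 47.2) were met in all 3 lists. Of all 951 regions of the series 105 were met in all 3 lists (11.0%), and of the 922 regions off these loci 97 (10.5%, 8.61 to 12.7). Peaks in 1 list only made up 16 of the 29 regions (55.2%, 35.7 to 73.6), against 697 of 951 (73.3%) over the series. The share in all 3 lists was thus higher on snRNA loci than off them, with intervals that met at 12.7%. In 6 of the 8 shared regions the peak had the same first and last base in all 3 lists, which held for 67 of the 105 over the series. Among regions of a single list, 12 of 16 came from normal glucose on snRNA loci, and 324 of 697 did over the series.

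**Figure D2:**
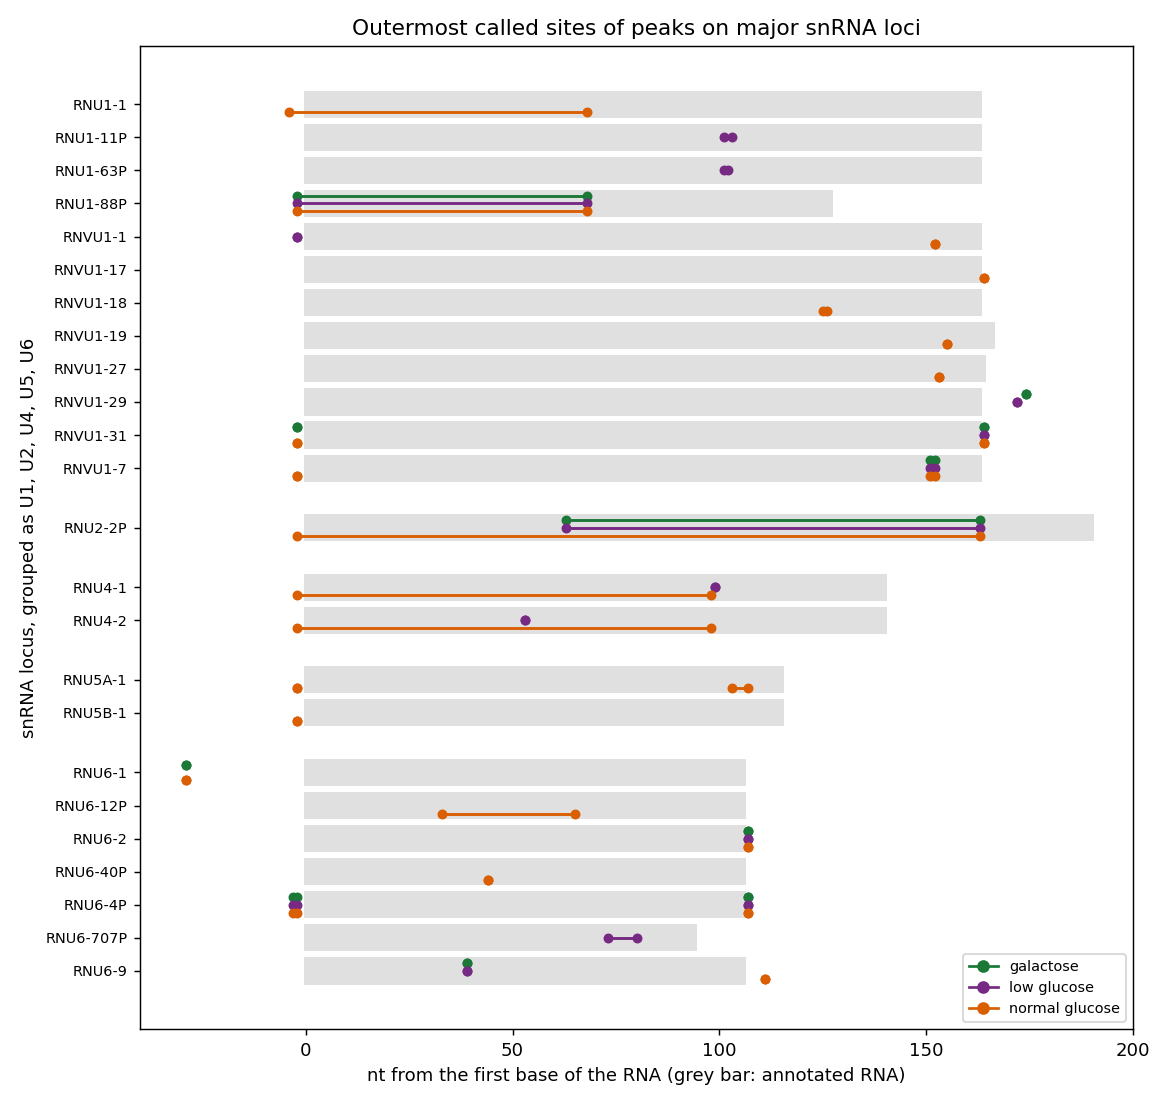
Outermost called sites (points, joined by a line where they belong to 1 peak) along each snRNA, in nt from the first base, with the annotated RNA as a grey bar and the medium as colour. Points lie inside the bars as well as just outside them at both ends, and RNU1-88P, RNVU1-31, RNVU1-7, RNU2-2P, RNU6-2, RNU6-4P and RNU6-9 carry all 3 colours.

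U1, which starts spliceosome assembly at the 5′ splice site, had 16 distinct peaks on 12 loci. RNVU1-31 (ENSG00000270722), which differs from RNU1-1 at 2 of 164 bases, had a site 1 nt past its last base in all 3 lists, on the same peak (chromosome 1, 145465566 to 145465666). A second peak of RNVU1-31, with its site at -2, was listed in galactose and normal glucose and not in low glucose. RNVU1-7 (ENSG00000206585), with the single substitution T150C against RNU1-1, had sites at 152 and 153 in all 3 lists and a further site at -2 in normal glucose. Both loci thus kept a site in every medium, just past the last base on RNVU1-31 and inside the RNA on RNVU1-7. The site before the first base was not in every list.

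The place of the inner RNVU1-7 sites recurred on other U1 variants in normal glucose. Aligned to RNU1-1, the site of RNVU1-1 (ENSG00000207340), of RNVU1-27 (ENSG00000274210) and of RNVU1-19 (ENSG00000275538) lay at base 153, where the RNVU1-7 site also lay. In each of these the base before the site was a G, and the Sm motif AATTTNT ended 21 or 22 nt before the sites. RNVU1-1 had a peak in low glucose too, but there its site was at -2. The peaks of RNVU1-1 were also annotated to LINC01138 and that of RNVU1-19 to ENSG00000287979, each on the same strand. These peaks cannot be given to the U1 copies alone. RNVU1-17 (ENSG00000207349), listed in normal glucose alone, shared with RNVU1-31 a site 1 nt past its last base. RNVU1-29 (ENSG00000273768), whose RNA sequence equals that of RNU1-1, had sites beyond the RNA at 175 in galactose and 173 in low glucose, and no peak in normal glucose. Both of its peaks were also annotated to ENSG00000290578 on the opposite strand, and the lists give no strand.

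The canonical gene RNU1-1 (ENSG00000206652) was listed in normal glucose alone, with a peak of 173 nt whose outer sites lay at -4 and 69 (chromosome 1, 16514167 to 16514339). RNU1-88P (ENSG00000238554), a copy of 128 nt with 113 bases identical to RNU1-1, had nearly the same outline, with outer sites at -2 and 69 and the same 171 nt in all 3 lists. Of the 30-mers of the RNU1-1 peak 75% recur in the genome, against 29.6% for RNU1-88P, and how reads that fit several copies were treated is not given in the sources used here. Such reads cannot be placed on 1 copy from the lists, which touches every value for U1 and U6 copies with the same sequence. RNVU1-18 (ENSG00000206737), with the same RNA sequence as RNU1-1, had sites at 126 and 127 within the Sm motif in normal glucose, and 100% of its 30-mers recur.

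RNU1-63P (ENSG00000206629) and RNU1-11P (ENSG00000206702), each listed in low glucose alone, had their first site at the same base of U1 and their last at 103 and 104. RNU1-11P lies within PHACTR1 on the same strand, and RNU1-63P within ENSG00000250075. The bases around the sites are shown because these copies on different chromosomes share the place (chr4:67429638-67429668, minus strand, and chr6:13214142-13214172, plus strand), with 15 bases on each side of the first outer site and the outer sites in capitals.
RNU1-63P: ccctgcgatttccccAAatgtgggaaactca
RNU1-11P: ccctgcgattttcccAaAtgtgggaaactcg

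The letters ACTTACCTG, with which U1 pairs to the 5′ splice site, lie at bases 3 to 11 of 11 of the 12 U1 loci, and no outer site fell within them. There were only 22 distinct U1 sites, and how many would fall on so short a stretch by place alone was not computed. The absence is therefore not read as avoidance. On either strand the letters were held by 5 of the 34 snRNA peaks and by 7 of all 1108 peaks (0.632%). The nearest outer site was 4 nt away on RNU1-88P, RNVU1-1, RNVU1-31 and RNVU1-7 and 6 nt away on RNU1-1. The Sm letters AATTTNT were in 16 of the 34 peaks and in 83 of all peaks (7.49%), and the shares count letters, not sites of binding.

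U2, which marks the branch point, had peaks on RNU2-2P (ENSG00000222328) alone, a locus with 184 of 191 bases identical to RNU2-1. Its peaks in all 3 lists were also annotated to WDR74 on the same strand, so they cannot be given to RNU2-2P alone. In galactose and in low glucose the peak was the same, with outer sites at 64 and 164 (chromosome 11, 62841596 to 62841796). In normal glucose the site at 164 stayed and the first outer site lay at -2, so the peak widened from 201 to 266 nt. The branch-point letters GTAGTA at bases 33 to 38 thus lay between the outer sites in normal glucose and before both of them in the other lists. Recurrent 30-mers made up 77.9% and 63.7% of these peaks. A gene that GENCODE names U2 (ENSG00000274452, chromosome 17) had a peak with its site at 189 in all 3 lists, but it carried no symbol in the lists and was not counted as a member.

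U4, the RNA that keeps U6 inactive, had peaks on both of its functional genes. RNU4-1 (ENSG00000200795) had a site at 100 in low glucose and outer sites at -2 and 99 in normal glucose. RNU4-2 (ENSG00000202538) had a site at 54 in low glucose and the same outer sites as RNU4-1, -2 and 99, in normal glucose. Both normal glucose peaks were 201 nt wide, so the pair of genes had the same outline there, and both were absent from the galactose list. The base before site 99 was G in both genes, although base 99 itself differs between them (C99A, counted along RNU4-1). Of the 30-mers of these peaks 34.9% recur for RNU4-2 and 40.7% for RNU4-1, against 54.2% for the RNU4-2 peak in low glucose.

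U5, which holds the exons in place, had peaks in normal glucose only. RNU5A-1 (ENSG00000199568) had a site at -2 and a second peak with outer sites at 104 and 108, which lie 11 and more nt past the Sm motif (bases 87 to 93). RNU5B-1 (ENSG00000200156) had a site at -2. On both genes the loop letters GCCTTTTAC lie at bases 37 to 45, and the nearest outer site, at -2, was 38 nt away. Those letters were in 2 of the 34 snRNA peaks and in no other peak of the series (0.181% of 1108). The peaks of RNU5A-1 were nearly free of recurrent 30-mers, at 0% and 3.95%, but RNU5A-1 lies opposite PARP16 and the lists give no strand.

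U6, the RNA of the catalytic core, had 9 distinct peaks on 7 loci. RNU6-2 (ENSG00000207357) had 1 site, 1 nt past its last base, in all 3 lists (chromosome 19, 1021579 to 1021679). RNU6-4P (ENSG00000206932), which is named as a pseudogene although its RNA sequence is the same as that of RNU6-1, lies in SOX2-OT and had a peak with outer sites at -3 and -2 and another 1 nt past its last base. Both peaks of RNU6-4P were listed with identical bounds in all 3 media. RNU6-2 and RNU6-4P were the U6 loci with the same peaks in every list, and 31.9 to 33.3% of the 30-mers of their peaks recur.

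RNU6-9 (ENSG00000207507) was listed at different places of the RNA. In galactose and low glucose its site lay at 40, next to the letters ACAGAGA (bases 41 to 47) with which U6 meets the 5′ splice site, and in normal glucose it lay 5 nt past the last base. The first of these peaks was 87.5% recurrent and the second 30.6%. RNU6-40P (ENSG00000206981) had a site at 45, inside the same letters, in normal glucose alone. The letters ACAGAGA were in 5 of the 34 snRNA peaks and in 37 of all peaks (3.34%). RNU6-707P (ENSG00000201517, chromosome X), a copy of 95 nt with 88 bases identical to RNU6-1, had outer sites at 74 and 81 in low glucose alone. Its peak was also annotated to ENSG00000233139 on the same strand.

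A site outside the RNA was listed upstream of RNU6-1 (ENSG00000206625), at -29, in galactose and normal glucose and not in low glucose. The bases of that peak before the RNA are shown because its middle falls on a TATA-like stretch of the promoter (chr15:67840046-67840124, minus strand), with the letters TATATA in capitals.
RNU6-1: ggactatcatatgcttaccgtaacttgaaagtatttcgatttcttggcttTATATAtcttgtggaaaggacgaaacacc

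The letters TATATA lay at -29 to -24, so that the site was their first base, and none of the 30-mers of the peak recur. They were held on either strand by 1 of the 34 snRNA peaks and by 17 of all 1108 peaks (1.53%). The locus ENSG00000259410 runs on the opposite strand there, and which strand the reads came from is not in the lists.

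RNU6-12P (ENSG00000207334), a further U6 copy, had a peak of 133 nt with outer sites at 34 and 66 in normal glucose alone, and 77.9% of its 30-mers recur.

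Part of the outer sites lay at the ends of the RNAs, and most lay further inside. Over all lists there were 47 distinct sites on the 24 loci, of which 12 lay within 5 nt of the first base and 5 within 5 nt of the last, 27 lay further inside and 3 further outside. At the 5′ end 10 of the 12 were at -2, and 1 each at -3 and -4. At the 3′ end 4 of the 5 were 1 nt past the last base. U1, U2, U4, U5 and U6 all had a site at -2, and U1 and U6 alone had one just past the 3′ end. The exact positions hold for the 1-based reading, which was chosen in part because it sets sites at the same distance from RNA ends on either strand. By peak, 16 of 34 (47.1%, 29.8 to 64.9) had an outer site within 5 nt of an RNA end, 11 of them at the 5′ end and 5 at the 3′ end. With starts counted from 0 the share was also 47.1%. Of the pairs of a peak and another small RNA gene (snoRNAs, scaRNAs, miscellaneous RNAs and other snRNAs) 84 of 146 did (57.5%, 49.1 to 65.7), so the snRNAs were near that background. On protein coding genes 28 of 876 pairs of peak and gene had a site this near to an end of the gene (3.2%, 2.13 to 4.59). The same window covers a larger part of a short RNA than of a long gene. The snRNAs here are 95 to 191 nt long and SNRPA, for example, 14753 nt. The share expected from length was not computed, so these shares cannot be compared as a preference for ends. Within the snRNAs a 5′ site was held by 3 of the 11 galactose peaks, 3 of the 15 low glucose peaks and 10 of the 24 normal glucose peaks. In other small RNA genes these were 14 of 49, 9 of 54 and 28 of 74 pairs of peak and gene. Normal glucose thus had the largest share at the 5′ end in both groups, a difference that could not be tested.

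**Figure D3:**
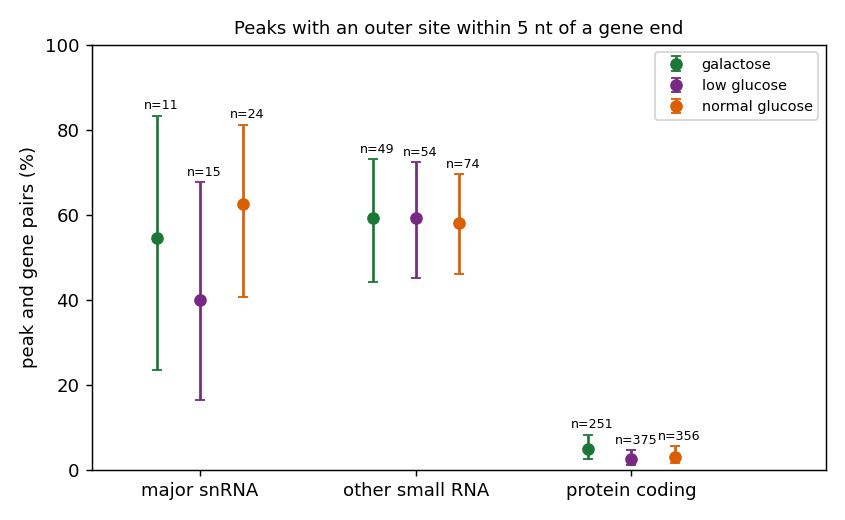
Percent of peak and gene pairs with an outer site within 5 nt of a gene end (y axis) for major snRNAs, other small RNA genes and protein coding genes (x axis), by medium (colour), with exact 95% intervals over n pairs. The snRNA values lie between 40 and 62.5%, with intervals that overlap those of the other small RNAs, and those of protein coding genes lie at 4.78% or lower. Gene length differs between the groups and is not accounted for.

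RNase T1, used to trim the RNA, cuts after G, so the base before the site was read for single-site peaks. It was G in 3 of the 7 galactose peaks on snRNA loci (42.9%, 9.9 to 81.6), 1 of the 8 low glucose peaks (12.5%, 0.316 to 52.7) and 9 of the 14 normal glucose peaks (64.3%, 35.1 to 87.2). Over all single-site peaks with 1 annotated strand it was G in 24.3% of the 169 galactose peaks, 26.1% of the 203 low glucose peaks and 62.8% of the 266 normal glucose peaks. On snRNA loci the share was thus near that of the whole list in normal glucose, above it in galactose and below it in low glucose, and each interval held the value of its list. These shares describe the 1-based reading of the positions, which was itself chosen in part because it sets a G before most sites of the whole normal glucose list on either strand (56.8% on plus and 69.3% on minus). With starts counted from 0 they were 14.3%, 25% and 21.4% in galactose, low and normal glucose. In normal glucose the G stood before the sites of RNU6-40P, RNVU1-19, RNVU1-17, RNVU1-1, RNVU1-27, both single sites of RNVU1-31, the site at -2 of RNVU1-7 and the one of RNU5A-1. The single G of low glucose stood before the 3′ site of RNVU1-31. In galactose it stood before both single sites of RNVU1-31 and the site of RNVU1-29 at 175. For the RNVU1-29 site and for the sites at -2 of RNVU1-31, RNVU1-7 and RNU5A-1, that G lies outside the annotated RNA. It is a base of the genome beside the RNA, so it cannot be read as a cut within the annotated RNA. Whether the way the RNA was cut takes part in where the lists differ was not tested.

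**Figure D4:**
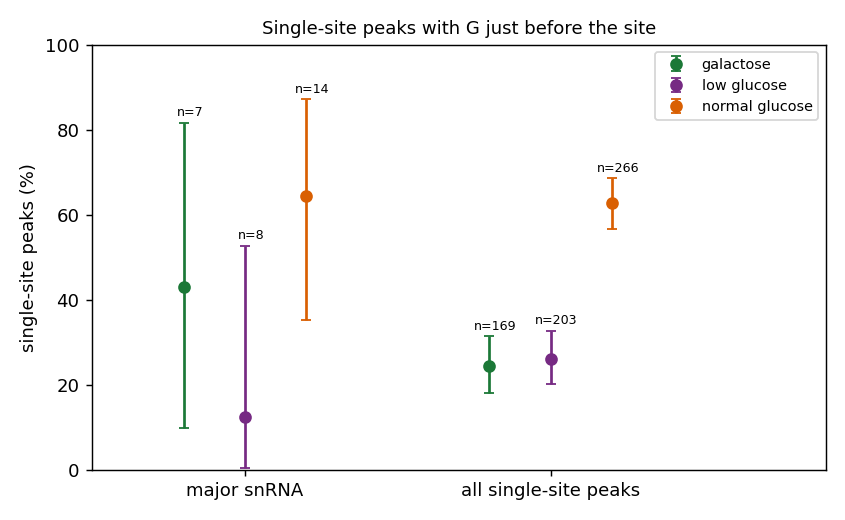
Percent of single-site peaks with G just before the site (y axis) on major snRNA loci and over each whole list (x axis), by medium (colour), with exact 95% intervals over n peaks. Normal glucose is highest in both, at 64.3 and 62.8%, with positions read as 1-based.

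Bases that differ between copies were set beside the sites. In the 12 loci with an inner site and a substitution against the reference copy of their type, 9 of 19 inner sites (47.4%) lay within 5 nt of a substitution, and 36.3% of their 1757 RNA positions lay as near to one. Neighbouring positions are not independent, and the difference was not tested. On RNVU1-7 the substitution T150C lay 2 nt from a site, and on RNU6-707P A83G lay 1 nt from one. On RNVU1-27 C153T, on RNU4-2 C99A and on RNU6-12P C66T lay on the site itself. Bases are counted along RNU1-1, RNU4-1 and RNU6-1, and the base of that reference copy is given first.

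The loci with a peak were set beside those that could have been listed. GENCODE names 1673 loci by the same rule, and 24 of them were listed by symbol with a peak (1.43%, 0.921 to 2.13). Of other small RNA genes 87 of 3431 had a peak (2.54%). Counting any overlap of a peak with the gene, 25 of the 1673 had one (1.49%, 0.969 to 2.2). The added locus is the U2 gene ENSG00000274452, which carried no symbol in the lists. Loci with no P at the end of the symbol made up 16 of the 24 listed, of 106 (15.1%, 8.88 to 23.4), and those with a P 8 of 1567 (0.511%, 0.221 to 1). By type, 12 of 146 U1 loci, 1 of 90 U2 loci, 2 of 97 U4 loci, 2 of 31 U5 loci and 7 of 1309 U6 loci were listed. With any overlap the U2 count was 2 of 90. Without and with a P in the symbol, the counts were 9 of 34 and 3 of 112 for U1, 2 of 9 and 0 of 88 for U4, 2 of 5 and 0 of 26 for U5, and 3 of 38 and 4 of 1271 for U6. In U2 the listed gene, RNU2-2P, carries the P, and the gene ENSG00000274452, with a peak but no symbol in the lists, does not.

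The genes of the proteins that build these particles were set beside all protein coding genes, of which 560 of 20046 had a peak in any list (2.79%). Among 45 snRNP proteins 2 had a peak (4.44%, 0.543 to 15.1). SNRPA, the U1 A protein, had a peak in normal glucose and TXNL4A, a U5 snRNP protein, one in low glucose. The SNRPA peak was also annotated to C19orf54, and with no strand in the lists it cannot be given to SNRPA alone. Among 49 annotated factors that make, carry or transcribe snRNAs 1 had a peak (2.04%, 0.0517 to 10.9). CLNS1A, which takes part in Sm ring assembly, had that peak in galactose, with its site 2 nt before the gene. None of these proteins was met in more than 1 list. All 4 RNAs of the minor spliceosome had peaks: RNU11 and RNU4ATAC in all 3 lists, RNU12 in low and normal glucose and RNU6ATAC in low glucose, 10 distinct peaks in all. None of the 34 peaks on the major snRNAs overlapped a nuclear tRNA gene. The share of all peaks that do is not given here, so this is not read as a trait of these loci.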

How the data were processed

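Trimming and alignment used cutadapt and STAR on hg38, as the notes of the submitters have it, with no version given. Per the study's methods, GAPDH was crosslinked to RNA, precipitated with an antibody and treated with RNase T1, PureCLIP called crosslink sites, neighbouring sites were merged and lone sites were extended. The labels describe instead a total RNA library with rRNA removal. The files deposited by the authors hold positions (chromosome, start, end), gene identifiers and symbols, 1 list per medium joined over 2 samples. They hold no counts, scores or strands, so the depth is unknown. The calling threshold, the rule for joining and the treatment of multiply mapped reads are not given in the sources used here. The paper points to an outside deposit for its parameters, which was not used.

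The coordinate base is not stated. Positions were read as 1-based, both ends included, as inferred from the sites, which then lay at the same distance from RNA ends, and in normal glucose mostly had G before them, on either strand. Strand, biotype and RNA bounds came from GENCODE release 44 by gene identifier (50 of 50 snRNA rows matched), sequence from hg38 and 465 tRNA genes from RefSeq. A peak was recurrent where over 50% of its 30-mers had a further copy in hg38. Peaks overlapping by 1 nt were merged into regions. Copies were aligned globally to RNU1-1, RNU2-1, RNU4-1, RNU5A-1 and RNU6-1 with Biopython 1.88. Motifs were searched on both strands of peaks. The U5 and U6 RNA sequences are not reported here. Intervals are exact Clopper-Pearson (scipy 1.17.1). Site reading and merging were tested on simulated peaks with known answers. Every locus found by the rule was named, and pathway genes were named where they had a peak. The members, the gene lists and the alternatives were chosen with earlier results of these data known. The alternatives were loci for peaks, other overlap rules, starts counted from 0, joining within 50 nt, and leaving out copies named as pseudogenes, recurrent peaks or peaks shared with other genes. The windows of 3 and 10 nt at RNA ends and the peak middle were added after seeing the data.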

Additional observations from a re-analysis of the deposited data

How the results depend on the processing

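Of 58 alternatives over 18 results, 52 stayed within the interval of the reported value or, for counts, within 1.5 times. Intervals over few peaks are wide, so this tally does not show that the results are stable. The galactose share with G before the site, for example, counted as unmoved at 14.3% against 42.9% (9.9 to 81.6). Without symbols ending in P the peaks fell to 7 in galactose and 8 in low glucose, and the low glucose share to 1.65%. Without peaks annotated to another gene they fell to 6 and 7. With starts counted from 0, G stood before 21.4% of the single-site peaks of normal glucose, 14.3% in galactose and 25% in low glucose, so that normal glucose was no longer highest. The lower counts follow from leaving peaks out. The G shares depend on the coordinate base, which is not stated and was inferred from these same data. The share of regions in all 3 lists ranged from 18.8% (middles within 10 nt) to 31.2% (no peak of another gene), and that of peaks with an end site from 32.4% (peak middles) to 52.9% (10 nt). No paired analysis was possible because the samples of a medium were joined in the lists. The intervals of U4 and U5 overlap between media, and how many reads stand behind a peak is unknown.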
